A study of Mus musculus with 7 samples.

Results

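The metallothioneins of the mouse are 4 genes, Mt1, Mt2, Mt3 and Mt4, and their RNA was read in brain and in kidney. Every probe set whose only gene symbol was one of these was taken, which gave 5 probe sets for 4 of the 18278 genes named on the arrays. Total RNA of whole brain and of kidney from mice was hybridised to 7 Affymetrix arrays; the labels give no strain, age, sex, treatment or number of animals, and both tissues were rinsed and extracted directly after dissection. All 5 probe sets lie on the 430A array, which was hybridised with brain RNA, and on the 430 2.0 array, which was hybridised with kidney RNA. The brain 430B array holds none of them, and no reverse probe set of the U74A or U74B arrays, which read antisense transcripts of both tissues, carries a metallothionein symbol. The values below are therefore sense signals from 1 array per tissue, without replicate error, and array type and tissue cannot be told apart.

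Metallothioneins are short, cysteine-rich proteins that bind zinc and copper in clusters of thiolates and take up cadmium. Mt1 and Mt2 are made in most tissues and are known to be induced by zinc, cadmium, glucocorticoids and oxidants, the metals acting through the transcription factor Mtf1 on short metal response elements before the gene. Mt3, first described as a growth inhibitory factor of brain, is known from neurons and astrocytes, and Mt4 from stratified squamous epithelium such as skin and tongue.

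The metal response element is known by a core whose letters can be written as TGCGCNC or TGCACNC. For Mt1, Mt2, Mt3 and Mt4 the bases before each start are shown, from RefSeq (assembly GRCm38.p6, plus strand). Matches to that core on either strand are in capitals. Any link between these matches and the tissue readings was not tested. The stretches are the 250 bases before the RefSeq start at chr8:94178839-94179088 for Mt1, chr8:94172368-94172617 for Mt2, chr8:94152357-94152606 for Mt3 and chr8:94136954-94137203 for Mt4.
Mt1: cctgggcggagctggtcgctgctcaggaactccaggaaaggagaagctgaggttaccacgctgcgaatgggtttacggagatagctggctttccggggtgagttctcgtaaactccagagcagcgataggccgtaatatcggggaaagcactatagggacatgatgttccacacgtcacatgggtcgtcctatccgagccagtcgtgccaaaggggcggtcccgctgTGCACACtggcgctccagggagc
Mt2: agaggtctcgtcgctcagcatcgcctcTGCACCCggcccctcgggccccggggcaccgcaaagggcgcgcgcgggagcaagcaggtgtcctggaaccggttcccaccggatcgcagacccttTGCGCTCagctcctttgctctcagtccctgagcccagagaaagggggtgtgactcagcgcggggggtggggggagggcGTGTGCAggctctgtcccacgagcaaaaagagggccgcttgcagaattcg
Mt3: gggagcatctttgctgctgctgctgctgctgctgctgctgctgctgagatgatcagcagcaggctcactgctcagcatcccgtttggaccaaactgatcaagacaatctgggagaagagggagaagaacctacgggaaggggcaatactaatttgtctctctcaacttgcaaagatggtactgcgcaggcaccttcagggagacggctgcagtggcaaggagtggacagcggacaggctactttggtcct
Mt4: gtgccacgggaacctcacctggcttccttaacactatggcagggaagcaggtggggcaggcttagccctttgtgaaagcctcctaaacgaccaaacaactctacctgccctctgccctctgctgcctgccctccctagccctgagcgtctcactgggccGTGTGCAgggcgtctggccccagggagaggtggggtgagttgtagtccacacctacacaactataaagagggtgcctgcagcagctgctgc

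In these windows, placed by the RefSeq start, Mt2 had the most matches, with 3 in the bases shown and 1 more within the 50 bases after the start. Mt1 had 1 in the bases shown, at positions -23 to -17 from the start, and 2 more just after it, in the stretch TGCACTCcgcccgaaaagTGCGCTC at positions 3 to 27. Mt3 had none before the start and 1 after it, and Mt4 had 1 before it, at positions -91 to -85. Over the 32851 promoter windows of 300 bases in the RefSeq table, 25.7% held at least 1 match, 1.97% at least 3 and 0.517% at least 4. In the whole window Mt1 had 3 matches, Mt2 4, and Mt3 and Mt4 1 each. Such matches describe the letters of the window and were not measured for binding. Bases outside the windows were not searched, so the order of the genes by matches holds only for these windows. The RefSeq start was taken as annotated and was not checked against measured transcript starts. Matches are thus placed before or after the start by the annotation alone, also those at Mt1.

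Mt1 was among the brightest probe sets in both tissues. Its probe set 1422557_s_at read 2206.2 in brain and 5339.1 in kidney, as deposited. These signals lay at percentile 98.8 of the 22626 probe sets of the brain 430A array and at percentile 98.7 of the same probe sets in kidney. Of the 453 probe sets at or above the 98th percentile in each tissue, 204 were there in both, and this was 1 of them. The kidney signal was 2.42-fold higher as deposited. After centring by the median log2 ratio among probe sets bright on both arrays, which removed -0.84, kidney was 1.35-fold higher, a log2 ratio of brain over kidney of -0.43, and the gene was within 2-fold. Of the 13364 probe sets of 430A above the floor in at least 1 tissue, 34.5% had a ratio further towards kidney. The floor is the higher array median after centring, 186.4 on the kidney array and 104 in brain signal units. In whole tissue, fewer cells of a type and less RNA per cell cannot be told apart.

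Mt2 was bright in both tissues as well. Its probe set 1428942_at read 1687.4 in brain and 2937.5 in kidney, at percentiles 97.9 and 96.2 of the shared probe sets. Kidney was 1.74-fold higher as deposited, and after centring the tissues were level, with a log2 ratio of 0.04. A ratio further towards kidney was found for 48.9% of the probe sets above the floor, so Mt2 sat near the middle of the array. The tissue ratios of Mt2 and Mt1 differed by 0.48 on the log2 scale, a value that any scaling of an array by a constant leaves the same. The 98 bright probe sets that sit on both brain sense arrays are a repeat reading of the same tissue, and their log2 differences had an SD of 0.25, which makes 0.35 for a difference of 2 such ratios. The gap between Mt1 and Mt2 was 1.35 times this technical spread, which does not include the spread between animals.

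Mt3 was among the brightest probe sets in brain and below the floor in kidney. Its probe set 1420575_at read 2234.3 in brain, at percentile 98.8, and 20.3 in kidney, at percentile 22.6 of the shared probe sets. Only 270 of the 22626 probe sets were brighter in brain, and 17509 were brighter in kidney. The deposited signals, with no floor, differed by 110.1-fold, which is not taken as the size. With the kidney signal raised to the floor, brain exceeded kidney by at least 21.5-fold after centring. Of the 13364 probe sets above the floor, 52 had a larger ratio towards brain. The kidney signal of Mt3 lies below the floor, where these arrays do not rank probe sets firmly, so only the lower bound is given as the size, and without replicate arrays the spread between animals is not known.

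Mt4 was below the floor in both tissues. Its probe set 1450645_at read 4.8 in brain and 8.4 in kidney, at percentiles 4.78 and 13.3 of the shared probe sets. No fold is given for it. Of 10 markers of squamous epithelium, the tissue for which Mt4 is known, 6 were below the floor in both tissues. The other 4 passed it, and among them Lor was called for brain and Sprr1a for kidney. For comparison, 13364 of the 22626 probe sets of 430A passed the floor. With 10 genes the count cannot be set apart from this background, and its bearing on Mt4 was not tested. The brightest signal of the list was 213.4 in brain (Lor, a protein of the cornified envelope) and 432.8 in kidney (Sprr1a). The summed signal of the list was 876.3 in brain and 867.2 in kidney.

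Among the 3 metallothioneins above the floor, brain exceeded kidney by 2-fold or more for 1, and kidney exceeded brain for none. By this rule 19.8% of all 430A probe sets above the floor were called for brain and 21.1% for kidney. With 3 genes, the count by itself cannot be set apart from this background.

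**Figure D1:**
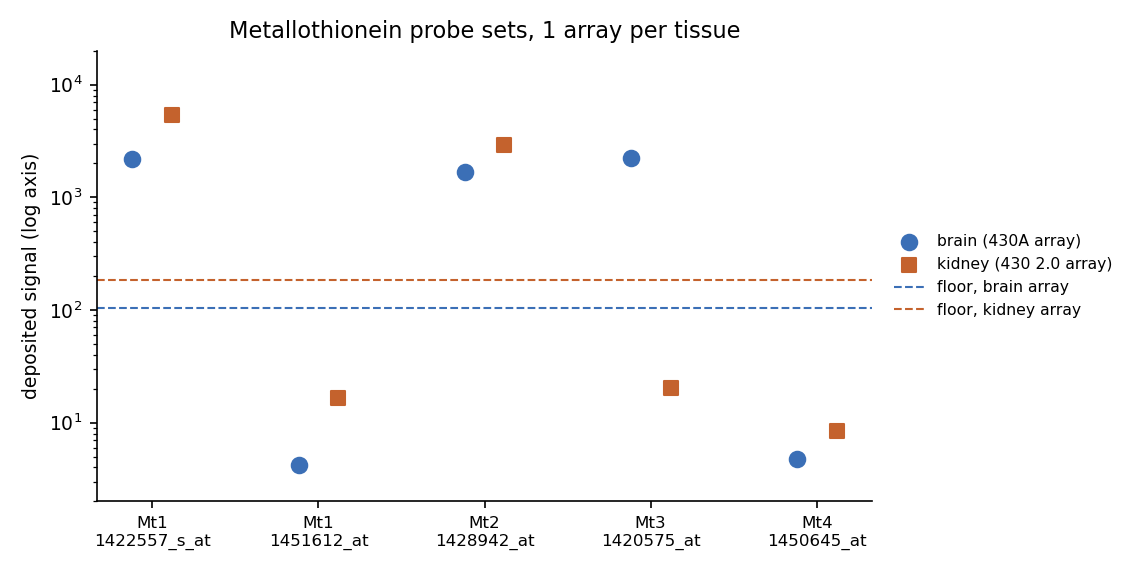
Deposited signal (log axis) of the 5 metallothionein probe sets in brain (circles, 430A array) and kidney (squares, 430 2.0 array), 1 array each, with the floor of each array as a dashed line. The bright probe sets of Mt1 and Mt2 lie above the floor in both tissues, Mt3 reads 2234.3 in brain and 20.3 in kidney, and Mt4 and the other probe set of Mt1 lie below the floor in both.

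**Figure D2:**
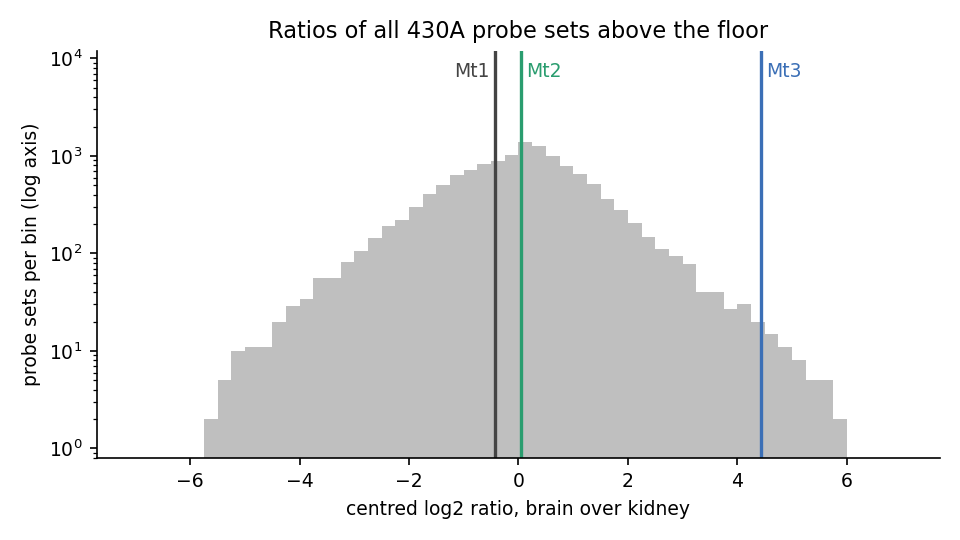
Centred log2 ratio of brain over kidney for the 13364 probe sets of 430A above the floor, as the number of probe sets per bin (log axis), with lines at Mt1, Mt2 and Mt3. Mt1 (-0.43) and Mt2 (0.04) lie in the body of the distribution, and Mt3 (4.43, a lower bound) in its brain tail.

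Mt1 had a further probe set, and it gave another reading. Probe set 1451612_at, also annotated to Mt1 alone, read 4.2 in brain and 16.7 in kidney, at percentiles 4.14 and 20.3 of the shared probe sets, below the floor in both tissues. The level of Mt1 thus rests on 1422557_s_at, whose suffix marks probes that match more than 1 transcript, so a share of its signal may come from a near copy such as Mt2. This was not tested, since probe sequences were not used. Disagreement of this kind was not rare on the array. Of 208 genes with several probe sets and one of them in the brightest 5% of both tissues, 59 (28.4%) had another below the median of both, and 12 had another below percentile 10 of the brain array. Mt1 was among the 59.

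The scaling decided the direction of Mt1 and Mt2 and not that of Mt3. As deposited, the log2 ratio of brain over kidney was -1.28 for Mt1, which is 2.42-fold higher in kidney and past the 2-fold rule, and -0.80 for Mt2. With quantile normalization of both arrays it was 0.04 for Mt1 and 0.55 for Mt2. Neither gene can be called higher in kidney or in brain from these arrays. Mt3 was higher in brain under each scaling and floor tried, the excess being at least 8.72-fold under the floor of the 75th percentile, at least 18.4-fold as deposited and at least 34.3-fold with quantile normalization. In each of these scalings the order along the ratio was the same, from Mt1 through Mt2 to Mt3, as it must be for Mt1 and Mt2 under any scaling by a constant.

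**Figure D3:**
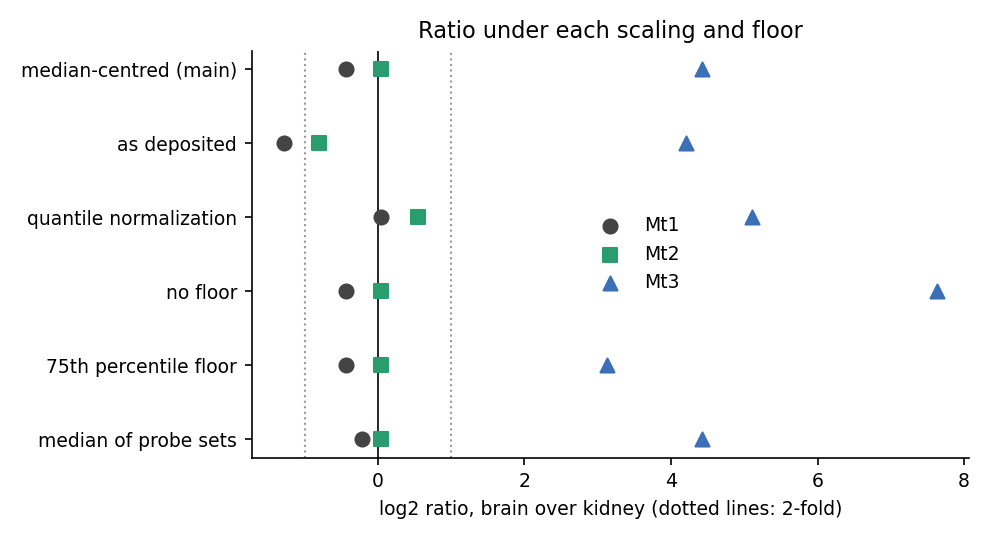
Log2 ratio of brain over kidney of Mt1 (circles), Mt2 (squares) and Mt3 (triangles) under each scaling and floor, with dotted lines at 2-fold and a solid line at 0. Mt1 runs from -1.28 to 0.04 and Mt2 from -0.80 to 0.55, while Mt3 stays between 3.12 and 7.62, as lower bounds except without a floor.

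The tissues carried most of the markers their labels name. Of all genes above the floor, 18.2% were called for brain and 26.4% for kidney. All 6 neuronal markers were 2-fold or more higher in brain, led by Syt1 (8559.8 in brain and 27.4 in kidney) and Snap25 (4170 and 0.2), and their summed signal was 22275.8 in brain and 106.6 in kidney. Of 6 astrocyte markers, 5 were higher in brain, led by Slc1a2 (8880.8 and 25.8) and Slc1a3 (3678.8 and 28.8), with a summed signal of 19970.5 against 2018.2. The other, Aqp4, was within 2-fold (763.4 in brain and 754.8 in kidney). All 4 oligodendrocyte markers with a probe set were higher in brain. With 2 tissues, the markers of these cell types cannot be told apart as sources of Mt3, and their part in its reading was not tested. In kidney, 5 of 6 proximal tubule markers and 4 of 5 of the distal nephron were higher; the exception among the former, Lrp2, was called for brain by its 430B probe set (311.7 against 28.1). Both measured fat markers were higher in kidney (summed signal 5605.2 against 28.8), and 1 of 3 blood markers was.

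Mt3 lies between Mt4 and Mt2 on chromosome 8, and all 4 genes stand in a row there, in the order Mt4, Mt3, Mt2, Mt1 in the RefSeq annotation. The 5 protein-coding genes on each side were read for comparison, and 9 of these 10 had a sense probe set under their own symbol and none a reverse one. Beside Mt3, with a log2 ratio of 4.43, the nearest genes with a measured ratio were thus Mt2 at 0.04 and, on the other side beyond Mt4, Ogfod1, an oxygenase that modifies a ribosomal protein, at 1.16 (890.6 in brain and 94.1 in kidney, on 430B, where the log2 ratio as deposited was 2.87 as a lower bound). With 430B on the 430A scale, Ogfod1 was at 2.76. Further out on that side, Gnao1, the G protein alpha subunit of neurons, was at least 17.2-fold higher in brain (1793.2 against 51.7). The other probe sets of Gnao1, also on 430A, were below the floor in both tissues (77.8 against 30.6 and 71.9 against 4). On the side of Mt1, the nucleoporin Nup93 was within 2-fold (152.8 in brain and 386.3 in kidney), though past it towards kidney as deposited, like Mt1, and Slc12a3, the salt cotransporter of the distal tubule, was at least 7.44-fold higher in kidney (1386 against 15.2). Herpud1, a gene of the endoplasmic reticulum stress response, was 2.27-fold higher in kidney (861.6 against 211.8), although its other probe set was within 2-fold (427 against 221.7) and the call was lost under the higher floor of the 75th percentile. Nudt21, a cleavage factor of messenger RNA, lies on the side of Mt4, between Gnao1 and Ogfod1. By the probe set that represented it, Nudt21 was 2.50-fold higher in kidney (1479.6 against 330.8). Of its other 3 probe sets, on 430B, 2 were 2-fold or more towards brain. Bbs2, Nlrc5 and Cpne2 were below the floor in both tissues. Of the 6 neighbours above the floor, 2 were higher in brain and 3 in kidney, where 18.2% and 26.4% of all genes above the floor were. With 6 genes the count cannot be set apart from this background.

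**Figure D4:**
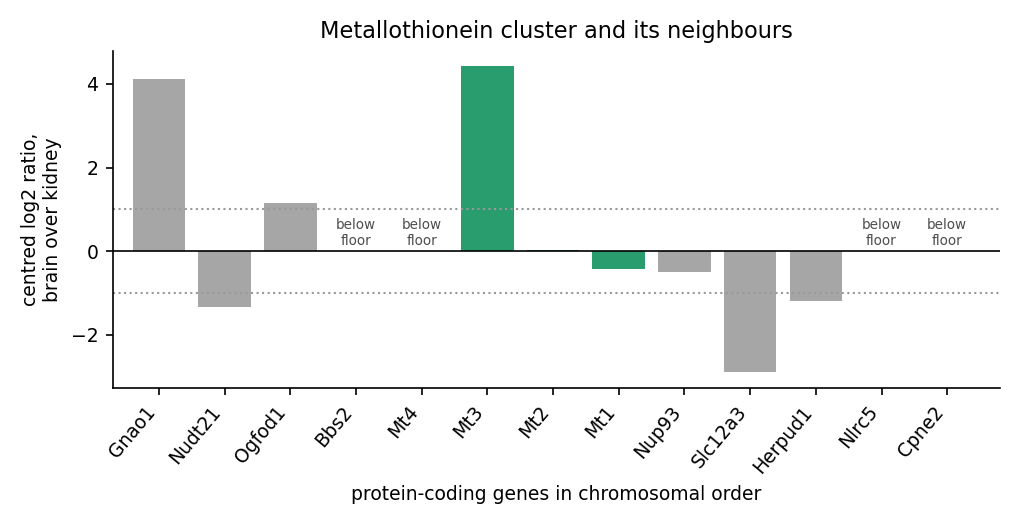
Centred log2 ratio of brain over kidney for the metallothioneins (green bars) and their protein-coding neighbours (grey bars) in chromosomal order, with dotted lines at 2-fold. Genes below the floor in both tissues (Mt4, Bbs2, Nlrc5 and Cpne2) are marked as such and have no bar. Mt3 (4.43) and Gnao1 (4.11) rise towards brain, Slc12a3 (-2.89) falls towards kidney, and Mt2 (0.04) and Mt1 (-0.43) stay within 2-fold.

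The other genes that move, sense and buffer metals gave the setting in which the metallothioneins were read. Of 69 listed genes, 66 had a sense probe set and 61 were above the floor, and by the 2-fold rule 6 (9.84%) were called for brain, 20 (32.8%) for kidney and 35 for neither, with a median log2 ratio of -0.41. Of all 12913 genes that passed the floor, 18.2% were called for brain and 26.4% for kidney, and their median was -0.08. Folds below are after centring unless said otherwise. The split was 7 and 33 with the signals as deposited, and 9 and 18 with 430B put on the scale of 430A, under which all genes had a median of 0.29. Shares of all genes called are given for the main setting alone, so these 2 splits cannot be set against a background.

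Zinc exporters, which carry zinc out of the cytosol, gave 2 genes higher in brain and 2 in kidney of 9 above the floor (22.2% each). Of all genes above the floor, 18.2% were called for brain and 26.4% for kidney. With 9 genes the count cannot be set apart from this background. In brain, Slc30a3, which loads zinc into synaptic vesicles, read 635.6 against 130.7, which is 4.86-fold higher as deposited and at least 6.11-fold after centring, in the tissue where Mt3 was high. Slc30a10, known chiefly as a manganese exporter, was at least 2.88-fold higher in brain (349.6 against 8.2), a call lost once the floor was set to the 75th percentile. Its other probe set had a log2 ratio of 0.43 as a lower bound (163.7 against 1.7), short of a call. The kidney calls of Slc30a1, the exporter of the plasma membrane, and of Slc30a7 rested on centring 430B by itself. Slc30a1 read 688.8 in brain and 782.3 in kidney there, and 113.6 and 106 by its 430A probe set, and Slc30a7 read 445.6 and 344.7. Both were within 2-fold as deposited and on the 430A scale.

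Zinc importers gave 1 gene higher in brain and 3 in kidney of 12 (8.33% and 25%, against 18.2% and 26.4% of all genes). With 12 genes this count cannot be set apart from the background either. The split was 2 and 5 as deposited, and 2 and 3 with 430B on the 430A scale. Slc39a10, read on 430B, had a log2 ratio of -0.35 after centring (2225.1 in brain and 668.6 in kidney). Its other probe set, also on 430B, had 1.80 (962.5 and 65.1). Slc39a12 was at least 8.93-fold higher in brain, with signals of 1085.1 against 8.2. Its other probe set had a log2 ratio of 0.82 as a lower bound (214.3 against 0.8), short of a call. In kidney, Slc39a5 (879.5 against 103.1, on 430B) was at least 7.24-fold higher as deposited, at least 10.1-fold on the 430A scale and at least 30.7-fold with 430B centred by itself, and Slc39a8, which also carries cadmium and manganese, was at least 7.04-fold higher after centring (1311.1 against 43.3). Among the regulators, Mtf1, the metal-sensing factor of Mt1 and Mt2, was within 2-fold by the probe set that represented it (363 in brain and 91.4 in kidney on 430B, log2 ratio -0.09 after centring), and leaned to brain by a 430A probe set (200.2 and 141.2, log2 ratio 0.94). The other 430A probe set of Mtf1 gave a log2 ratio of 0.24 (122.9 and 65.7). Nfe2l2, the factor of the oxidant response, was 5.22-fold higher in kidney (1301.3 against 139), the only call among 4 regulators after centring. As deposited, and with 430B on the 430A scale, 1 regulator was called for brain as well. Mtf1 is the only regulator represented on 430B, so its place within 2-fold rests on centring that array by itself. Of the 25 promoter windows of 20 zinc transporters, 5 of which had several, 12 (48%) held at least 1 match to the core shown above for the metallothioneins and 4 (16%) at least 2, with 1 of these at Slc30a1. Over all promoter windows the shares were 25.7% and 7.11%.

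Copper, iron and oxidant defence genes are read here against all genes above the floor, of which 26.4% were called for kidney and 18.2% for brain. Copper handling gave 5 of 11 in kidney and none in brain, led by the dismutases Sod1 (4193.6 against 1381.7 on 430B, 3.04-fold as deposited and 12.9-fold after centring) and Sod3 (948.3 against 127.3, 4.16-fold). The bright 430A probe set of Sod1 was within 2-fold (2486.4 against 1231.7). The other 430A probe set of Sod3 (263.4 against 57.9) was within 2-fold once its brain signal was raised to the floor. Iron handling gave 2 of 7 in kidney, near the share of all genes, and none in brain. The 2 were the aconitase and iron sensor Aco1 (4597.5 against 261.6) and the iron exporter Slc40a1 (2099.4 against 132.6). The other 430A probe set of Slc40a1 was within 2-fold after centring (296.3 against 108.6). Glutathione and oxidant defence gave 5 of 11 in kidney, with the glutathione synthetase Gss (868.1 against 224 on 430B, 3.88-fold as deposited and 16.4-fold after centring) and the plasma peroxidase Gpx3 (7698.1 against 292.2), and 1 in brain, Srxn1 (274.1 against 192.6), which lost its call as deposited and under the higher floor. Genes induced by glucocorticoids, which also induce Mt1 and Mt2, gave 2 in each tissue of 7. Per1 (470.8 against 219) and Fkbp5 (227.9 against 178.4) were higher in brain. Both calls were lost under the higher floor, and that of Fkbp5 also as deposited and with quantile normalization. Sgk1 (2253.6 against 280.4) and Errfi1 (904.1 against 139.2) were higher in kidney, and Errfi1 lost its call under that floor too. The other 430A probe set of Errfi1 was within 2-fold after centring (160.3 against 112).

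**Figure D5:**
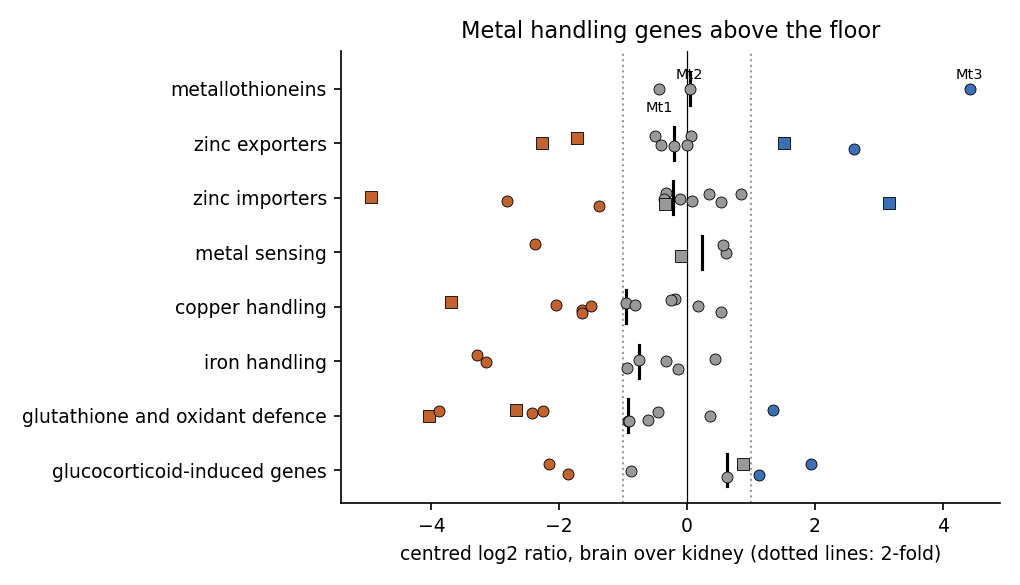
Centred log2 ratio of brain over kidney for the metallothioneins and for the genes of each metal handling list above the floor, read on 430A (circles) or 430B (squares), with a bar at the median of each row and dotted lines at 2-fold. Blue marks genes 2-fold or more higher in brain and orange those higher in kidney. Mt3 (4.43) is drawn further towards brain than the listed genes, the nearest being Slc39a12 (3.16), both as lower bounds.

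By the ratio over the 2 tissues, the listed genes most like Mt1 were Hmox2 (log2 ratio -0.46), Slc30a9 (-0.41) and Slc39a9 (-0.36), out of 48 above the floor in both tissues. Those most like Mt2 were Slc30a4 (0.06), Slc39a6 (0.08) and Slc30a6 (-0.0018). A likeness over 2 tissues describes only this ratio. Mt3 and Mt4 were not above the floor in both tissues and were given no such genes.

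For antisense transcripts, the metallothioneins have no reading here, and the listed metal handling genes have few. Of the 69, 14 had a reverse probe set and 2 of these were above the floor, which is the 75th percentile of the brighter array of a pair (63.5 on U74A and 98.5 on U74B). The reverse probe set of Cat, the catalase gene, was at least 2.09-fold higher in brain (132.6 against 49.3). That of Cox17, a copper chaperone of the mitochondrion, was at least 2.02-fold higher in kidney (128.3 against 59.3). Among all 1009 genes with a reverse probe set above the floor, 19.8% were called for brain and 4.66% for kidney by the same rule. No direction is drawn from these 2 genes, and with each pair centred on its median 4 were above the floor and none was higher in brain.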

How the data were processed

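The authors deposited linear intensity values, called MAS5 signals in the submitters' processing notes, and what they were scaled to was not given in the sources used here. Per the labels, the biotin-labelled cRNA came from 8 micrograms of brain RNA and 6.75 of kidney RNA. On the U74 arrays the authors kept probe sets marked reverse by Affymetrix's mask, per the labels. Probe sets with a single symbol in GEO's platform annotation were named by it, brought up to date by gene identifier against RefSeq (GRCm38.p6). Median array signals ranged from 18.3 to 42.2 on U74 and from 38.8 to 121.5 on the sense arrays, and precision is limited by how few arrays there are.

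Each brain sense array was set against the kidney array over their common probe sets. Centring took the median log2 ratio of probe sets above both medians (removing -0.84 for 430A and 2.08 for 430B). Signals under the floor (186.4 and 28.6 in kidney units) were then raised to it. In brain, the 98 bright shared probe sets read 1.33 higher on 430B than on 430A (median log2 difference). This set the 430A scale for 430B, and it is less than the gap between the 2 centring values. Where both signals pass the floor, 430B ratios centred by themselves thus lie further towards kidney than on the 430A scale. Reverse probe sets were compared as deposited with a floor at the 75th percentile. Calls were made at 2-fold for features above the floor in 1 or both tissues. For a gene with several probe sets, the one of highest mean percentile stood for it, and the 100 probe sets on both brain sense arrays were used once. A ratio with 1 tissue under the floor is a bound, written as at least N-fold. There is 1 array per tissue and design, so no p-value is given.

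The members and lists were chosen with earlier results of these data known. The rule named every metallothionein probe set, Mtf1, the chromosomal neighbours and the 2 leading markers per list. It also named the 2 listed genes with the largest ratio each way per list and the 3 listed genes nearest in ratio. Further readings of Sod1, Sod3, Slc30a1, Slc40a1, Mtf1, Gnao1, Errfi1, Slc30a10 and Slc39a12 were added after their values were seen. So were the gene Slc39a10 and the marker Aqp4. Adrenal gland markers gave no call in 4 genes. Centring and calling were tested on simulated data. Python 3.11.15 with pandas 2.3.3 was used.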

Additional observations from a re-analysis of the deposited data

How the results depend on the processing

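Mt3 kept its direction and its call under every scaling and floor tried, and its log2 ratio was 5.10 with quantile normalization, 7.62 without a floor and 3.12 with the floor at the 75th percentile. Mt1 and Mt2 turned with the scaling, to -1.28 and -0.80 as deposited and to 0.037 and 0.55 with quantile normalization, and Mt1 passed 2-fold as deposited. Mt4 and the dim probe set of Mt1 were below each floor tried. Of the metal handling genes, 33 were higher in kidney as deposited, with a median log2 ratio of -1.09. Those higher in brain were 11 without a floor, 2 with the floor at the 75th percentile and 2 at a fold of 4. Over all genes the median log2 ratio was 0.017 as deposited, 0.18 without a floor and -0.28 with the floor at the 75th percentile. For the reverse probe sets of these genes, quantile normalization and median-centring each gave 4 above the floor and 0 higher in brain, the 90th percentile floor gave 0 above it and 0 in each tissue, and no floor gave all 14, with 4 higher in brain and 7 in kidney. The cause of these shifts was not tested. Shares of all genes called are given for the main setting alone, so none of these counts can be set against a background. Bringing 430B to the 430A scale does not touch the metallothioneins, which are not on 430B. No paired analysis was possible because each tissue has 1 array per design, and no replicate could be left out.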
